A study of Rattus norvegicus with 5 samples.

Results

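The 9 genes of the GDNF family, 4 ligands, 4 coreceptors and the receptor tyrosine kinase Ret, were found by symbol among the 33014 genes of the combined table. They were chosen by name, as the complete family, with earlier results of these data known. The 5 libraries are RNA-seq of dissociated dorsal root ganglia, which hold the cell bodies of sensory neurons and their glia. The labels give wild-type Sprague Dawley animals at postnatal day 10, a litter of 10 pups. All 5 samples received PBS (phosphate-buffered saline, a vehicle) after 1 day and were cultured for 8 days, with 5000 cells plated per well and 3 wells pooled per sample. They form 1 group with replicates 1 to 5 and no treated group. The labels name no separate litters or preparations, so the p-values speak to differences among these libraries alone, and that spread may be technical.

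GDNF family ligands are secreted growth factors that each bind a preferred coreceptor of the GFRA family, which is held on the cell surface by a lipid anchor. The ligand and coreceptor then bring together Ret molecules, whose kinase domains signal through adaptors to the MAP kinase and PI3 kinase pathways. The preferred partners are GDNF with Gfra1, neurturin (Nrtn) with Gfra2, artemin (Artn) with Gfra3 and persephin (Pspn) with Gfra4. In sensory ganglia Ret is known for non-peptidergic nociceptors and some touch neurons, and Gfra3 for peptidergic nociceptors, while injured Schwann cells are known to make GDNF and artemin.

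Libraries held between 21596608 and 27913098 estimated reads. Pan-neuronal genes (10 of 10), Schwann cell genes (10 of 10), satellite glia genes (6 of 6), fibroblast genes (6 of 6) and macrophage genes (6 of 6) were all detected, that is, every library had a TPM of 1 or more. TPM is transcript abundance per length, scaled to 1000000 in each library. Endothelial and mural genes were detected for 4 of 8, and genes of central glia, muscle and blood for 2 of 8, with Cd3e, a T cell gene, at 0 in all 5 libraries. As bulk RNA, the libraries do not assign a transcript to a cell type, and fewer cells of a type and less RNA per cell cannot be told apart.

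The starts of the most abundant members by mean deposited TPM are shown first. Gfra1, Gfra3 and Ret were the 3 highest genes of the family on that measure. Gdnf had the highest mean of the ligands, though Artn did not differ from it beyond their spread. Each line gives the 250 bases before the annotated start, from RefSeq (GRCr8), 5′ to 3′ on the strand of the gene. Capitals mark matches, on either strand, to the searched motifs, which were the E-box CANNTG, the GC box GGGCGG, the TATA box TATAAA, the RUNX core TGTGGT and the AP-1 element TGANTCA.
Ret, chr4:153040557-153040806, minus strand: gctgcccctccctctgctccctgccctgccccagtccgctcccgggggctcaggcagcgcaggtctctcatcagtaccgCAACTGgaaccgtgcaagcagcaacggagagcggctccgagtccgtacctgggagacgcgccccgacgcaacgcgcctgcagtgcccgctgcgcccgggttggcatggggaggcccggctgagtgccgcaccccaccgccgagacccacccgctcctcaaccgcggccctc
Gfra1, chr1:267555812-267556061, minus strand: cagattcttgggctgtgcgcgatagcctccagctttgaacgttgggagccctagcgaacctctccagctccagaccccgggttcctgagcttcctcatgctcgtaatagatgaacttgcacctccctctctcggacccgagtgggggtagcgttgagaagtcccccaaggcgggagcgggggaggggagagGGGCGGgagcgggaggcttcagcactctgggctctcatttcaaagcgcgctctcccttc
Gfra3, chr18:26600226-26600475, minus strand: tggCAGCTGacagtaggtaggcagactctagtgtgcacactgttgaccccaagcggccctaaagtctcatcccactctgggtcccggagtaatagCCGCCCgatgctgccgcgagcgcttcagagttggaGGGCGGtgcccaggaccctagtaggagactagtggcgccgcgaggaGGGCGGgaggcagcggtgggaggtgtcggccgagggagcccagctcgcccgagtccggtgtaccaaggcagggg
Gdnf, chr2:58621077-58621326, plus strand: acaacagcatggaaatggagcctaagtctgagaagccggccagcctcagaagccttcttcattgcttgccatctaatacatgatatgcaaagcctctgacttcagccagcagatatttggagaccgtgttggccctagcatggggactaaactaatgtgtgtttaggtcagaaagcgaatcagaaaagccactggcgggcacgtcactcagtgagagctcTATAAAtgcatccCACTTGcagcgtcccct

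The Ret window was 72.8% G and C with 25 CpG pairs, against medians of 51.2% and 5 over 33469 promoters of the same length. It held 1 E-box, starting 171 bases before the start. The Gfra1 window was 62% G and C with 15 CpG pairs and 1 GC box, and the Gfra3 window 66% with 18 CpG pairs, 3 GC boxes and 1 E-box. The Gdnf window differed in base composition, with 49.6% G and C and 6 CpG pairs. It held a TATA box 30 bases before the start and an E-box 17 bases before it. Over all promoters, 65.5% held an E-box, 30.5% a GC box, 12.9% the TATA box, 14.5% the RUNX core and 6.34% the AP-1 element. The latter pair had no match in these 4 windows, which says nothing about the factors. A match is a description of letters, not a shown binding site.

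In the deposited gene TPM, Ret, Gfra1 and Gfra3 were the abundant members in these cultures, and the ligands were lower. Of the 9 members, 8 were detected, against 41.3% of all genes in the table, and the exception was Gfra4. From highest to lowest mean the order was Gfra1, Gfra3, Ret, Gdnf, Artn, Gfra2, Pspn, Nrtn and Gfra4. The summed TPM of the 4 coreceptors was 329 ± 16.0 (SD, n = 5), that of the 4 ligands 30.1 ± 2.39, and Ret stood at 60.8 ± 3.59. The coreceptor sum was 5.42 ± 0.386 times the Ret level, between 4.82 in replicate 4 and 5.88 in replicate 1.

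**Figure D1:**
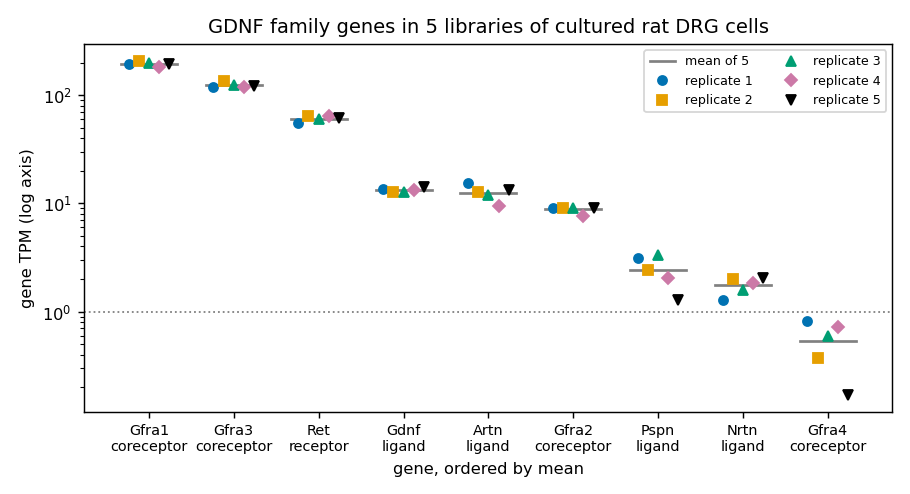
Gene TPM (log axis) of the 9 members, ordered by mean, in each of the 5 libraries; symbols mark replicates, grey lines the mean and the dotted line 1 TPM. Gfra1, Gfra3 and Ret lie well above the ligands, and all 5 values of Gfra4 lie below 1 TPM.

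Ret, the kinase that carries the signal of all 4 ligands, was at 55.1, 63.8, 59.8, 63.9 and 61.2 TPM in replicates 1 to 5. Replicate 1 was the lowest, and the other libraries lay close together. Ret had a higher TPM than 91.4% of the genes in the table. It rested on 3533 to 4840 estimated reads per library.

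Among the coreceptors, Gfra1 and Gfra3 dominated, and Gfra2 and Gfra4 were minor. Gfra1, the GDNF coreceptor, was at 195, 209, 198, 181 and 196 TPM, or 196 ± 9.97 (SD, n = 5), with replicate 2 highest and replicate 4 lowest. Gfra3, the artemin coreceptor, was at 119, 135, 124, 119 and 122 TPM, or 124 ± 6.51, with replicate 2 again highest. The ranges of Gfra1 and Gfra3 did not overlap. Gfra1 held 59.5% ± 0.689 of the summed coreceptor TPM and Gfra3 37.6% ± 0.819, so that their balance was nearly the same in each library. Gfra2, the neurturin coreceptor, held 2.68% ± 0.133, at 9.14, 9.16, 9.11, 7.68 and 8.98 TPM. Replicate 4 alone was low, and without it the mean was 9.10 ± 0.0821 TPM (n = 4). Gfra4, the persephin coreceptor, was between 0.170 and 0.812 TPM, which rested on 130 estimated reads in all. Its mean was 0.534 ± 0.261 TPM (SD, n = 5), of which 0.285 TPM rested on 16.6 estimated reads of the shortest transcript, NM_023967.1. With all reads on its longest transcript the mean would be 0.277 TPM, and on its shortest 2.31 TPM.

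Gfra1 and Gfra3 exceeded Ret in every library, and the other members lay below it. A fit over all genes took the log2 ratio of each gene to Ret, log2((TPM + 0.1)/(TPM of Ret + 0.1)), in each library. It was tested with limma and adjusted over all 24484 genes tested. These ratios share the Ret values, and the added 0.1 makes the ratios of low genes smaller. Of all genes, 10.9% were higher than Ret and 87.5% lower, so Ret itself lay high in the distribution. Of the 8 other members, 2 were higher and 6 lower. Gfra1 exceeded Ret by 1.69 ± 0.12 on this scale (SD, n = 5; 3.22-fold; limma adjusted p = 4.26e-10), in 5 of 5 libraries. Gfra3 exceeded Ret by 1.02 ± 0.08 (2.03-fold; limma adjusted p = 3.69e-09), in 5 of 5 libraries. Gfra2 was 6.83-fold below Ret, with a log2 ratio of -2.77 ± 0.17 (limma adjusted p = 2.05e-10). Gfra4 was 105-fold below Ret, with a log2 ratio of -6.71 ± 0.75 (limma adjusted p = 5.19e-09). Both were lower in 5 of 5 libraries.

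Among the ligands, Gdnf and Artn had similar TPM in the deposited gene table, and Pspn and Nrtn were low. Gdnf, a survival factor of sensory and motor neurons, was at 13.5, 12.8, 12.9, 13.4 and 14.3 TPM, or 13.4 ± 0.592 (SD, n = 5). Its libraries differed by at most 1.11-fold in this table, with replicate 5 highest. With all reads on its longest transcript they would be at 7.95, 6.08, 6.54, 6.05 and 7.30 TPM, up to 1.32-fold apart, with replicate 1 highest and replicate 4 lowest. Artn, a factor for Gfra3-bearing sensory and sympathetic neurons, was at 15.4, 12.6, 12.01, 9.38 and 13.4 TPM, or 12.6 ± 2.18. Replicate 1 was highest and replicate 4 lowest, 1.64-fold apart, and this range contained that of Gdnf. Gdnf held 44.6% ± 3.72 of the summed ligand TPM and Artn 41.4% ± 4.10.

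Pspn was at 3.12, 2.44, 3.33, 2.05 and 1.28 TPM, from only 42 estimated reads over the 5 libraries and a single transcript of 471 bases. Its mean of 2.44 TPM had an exact Poisson interval at 95% of 1.76 to 3.30, which covers counting error alone, because PCR copies of a molecule were not marked. In the RefSeq annotation Pspn overlaps Alkbh7, a gene at 32.8 ± 2.58 TPM here. Since the strand setting is not given in the sources used here, reads of the pair cannot be told apart where they overlap, and the level of Pspn is uncertain. Gdnf and Gfra1 overlap LOC134485851 and LOC102556644 in that annotation; the latter was at 0 TPM in all 5 libraries. Nrtn was at 1.29, 1.99, 1.60, 1.85 and 2.05 TPM, from 119 estimated reads. All of them were placed on a predicted transcript of 1173 bases, and the curated transcript of 671 bases had 0 reads in all libraries.

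Neighbours in the order of levels were compared with the same fit, taking the higher gene as the reference. Of the 8 neighbouring pairs, 6 were called different, and in those 6 the ranges of the libraries did not overlap. Gfra3 lay 1.58-fold below Gfra1, with a log2 ratio of -0.66 ± 0.05 (limma adjusted p = 1.53e-08), where 96.4% of all genes lay below Gfra1. Ret lay below Gfra3, as did 94% of all genes, and Gdnf lay 4.51-fold below Ret. With all reads on the longest transcript Gdnf lay 7.36-fold below Ret. It lay 11.0-fold below with annotated lengths, a setting that leaves out an unnamed transcript with 78.1% of Gdnf reads. With all reads on the shortest transcript, which was not fitted, Gdnf would be at 66.9 TPM and Ret at 71.7 TPM. Artn and Gdnf did not differ beyond their spread, with a log2 ratio of -0.11 ± 0.25 (limma adjusted p = 0.260) and Artn lower in 4 of 5 libraries. For comparison, 64.2% of all genes were called lower than Gdnf. Gfra2 lay 1.41-fold below Artn, with a log2 ratio of -0.49 ± 0.18 (limma adjusted p = 0.00124), as did 61.7% of all genes. Pspn lay 3.68-fold below Gfra2 (limma adjusted p = 2.10e-06), as did 58.7% of all genes. Nrtn and Pspn did not differ beyond their spread, with a log2 ratio of -0.40 ± 0.74 (limma adjusted p = 0.225), and 44.9% of all genes were called lower than Pspn. Without replicate 5, where Pspn had 4 reads, that ratio was -0.66 and was called (limma adjusted p = 0.0124). Gfra4 lay 3.15-fold below Nrtn, with a log2 ratio of -1.66 ± 0.93 (limma adjusted p = 3.40e-09), as did 43.9% of all genes. Without the variance trend the limma adjusted p was 0.000139. With all reads on the shortest transcript, which was not fitted, Gfra4 would be at 2.31 TPM and Nrtn at 1.76 TPM. The exact sign-flip test over 5 libraries cannot go below p = 0.0625, the value it gave for each of the 6 called pairs.

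Each ligand except persephin was lower than its preferred coreceptor. Gdnf was 14.5-fold below Gfra1, with a log2 ratio of -3.86 ± 0.11 (SD, n = 5; limma adjusted p = 6.18e-12), in 5 of 5 libraries. Artn was 9.88-fold below Gfra3, with a log2 ratio of -3.30 ± 0.27 (limma adjusted p = 8.80e-10), in 5 of 5 libraries. Nrtn was 4.85-fold below Gfra2, with a log2 ratio of -2.28 ± 0.30 (limma adjusted p = 4.97e-08), in 5 of 5 libraries. Pspn was 4.16-fold above Gfra4, with a log2 ratio of 2.06 ± 0.44 (limma adjusted p = 6.51e-07), but both rested on few reads and Pspn overlaps Alkbh7. Of all genes, 58% were called higher than Gfra4. The folds moved with the division of reads, with lengths and with the transcripts counted. Gdnf was 23.2-fold below Gfra1 with sums of named transcripts and 33.2-fold with annotated lengths. Both settings leave out a transcript without a name in the reference table, which held 78.1% of Gdnf reads. Artn was 41.7-fold below Gfra3 with all reads on the longest transcript. In the settings fitted, Pspn was between 2.21-fold (0.1 replaced by 1) and 6.53-fold (longest transcript) above Gfra4. With all reads on the shortest transcript, which was not fitted, Gfra4 would be at 2.31 ± 0.610 TPM and Pspn at 2.44 ± 0.831 TPM. Their difference therefore rests on the division of Gfra4 reads. All these folds are ratios of RNA and say nothing of secreted protein.

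**Figure D2:**
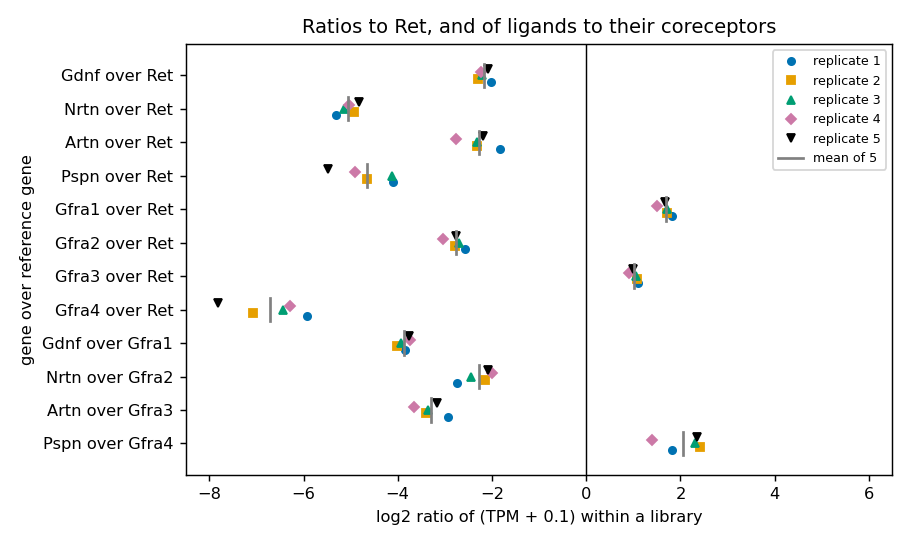
Log2 ratio of (TPM + 0.1) of each member to Ret, and of each ligand to its preferred coreceptor, with 1 symbol per library and a grey line at the mean. Gfra1 and Gfra3 lie to the right of 0 against Ret and the other members to the left; of the ligands, Pspn alone lies above its coreceptor.

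The gene levels depend on how reads were divided between transcripts, most of all for Gdnf and Artn. The reference table named 58.6% of Gdnf, 87.2% of Artn and 93.7% of Gfra1 TPM, and all of the TPM of the other members. For each of these 3 genes, exactly 1 unnamed transcript, or for Gfra1 exactly 1 pair, made up the rest of the authors' gene TPM in all 5 libraries within 5e-06 TPM. These are counted below as transcripts of the gene. The curated Gdnf transcript NM_019139.1, of 700 bases, held 53.0% ± 6.04 of Gdnf TPM (SD, n = 5) but only 10.8% ± 2.16 of its estimated reads. The predicted transcript XM_006232011.4, of 4404 bases, held 41.3% ± 5.70 of the TPM and 78.1% ± 3.11 of the reads. The TPM of the short transcript rested on 233 of 2190 estimated reads. Artn was divided in the same way. The transcript NM_053397.1, of 1357 bases, held 83.5% ± 1.07 of Artn TPM and 37.0% ± 2.03 of its reads, and XR_005504483.1, of 9154 bases, held 12.8% ± 0.749 and 47.5% ± 1.88.

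With all reads placed on the longest transcript that held any, Gdnf would stand at 6.79 ± 0.826 TPM, Artn at 2.89 ± 0.490 TPM and Gfra1 at 125 ± 4.95 TPM. Gfra1 and Gfra3 would then not differ beyond their spread (log2 ratio -0.013; limma adjusted p = 0.612), and Gfra2 would exceed Artn (log2 ratio 1.48). Against Ret, all 8 other members kept their direction in this setting, as did all 4 ligands against their coreceptors. Artn fell below Gdnf there (log2 ratio -1.21; limma adjusted p = 3.35e-07). It rose above Gdnf with sums of named transcripts (0.46; limma adjusted p = 0.00565), which leave out the unnamed transcript with most Gdnf reads. The order of Gdnf, Artn and Gfra2 thus changed between settings. The opposite placing, with all reads on the shortest transcript that held any, was not fitted. It would put Gdnf at 66.9 ± 7.83 TPM and Artn at 28.3 ± 4.76 TPM, beside Ret at 71.7 ± 4.46 TPM. The distance of Gdnf from Ret therefore rests on the division of its reads.

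Ret reads were divided almost evenly between a pair of curated transcripts. NM_001110099.1, of 3928 bases, was at 32.8, 37.7, 34.3, 35.4 and 34.7 TPM, and NM_012643.2, of 5478 bases, at 22.4, 26.1, 25.5, 28.5 and 26.5 TPM. The shorter was higher in all 5 libraries and held 57.6% ± 1.69 of Ret TPM (SD, n = 5). By estimated reads it held 48.8% ± 1.73. Ret is known to be made in isoforms that differ in the tail of the protein, and which of these each transcript encodes was not tested. The Gfra1 transcript NM_012959.2, of 3602 bases, held 59.3% ± 1.34 of Gfra1 TPM. The next was XM_008760514.3, of 8291 bases, with 15.9% ± 1.11. Gfra2 had a steady leading transcript, NM_012750.2, with 63.9% ± 3.44 of the TPM. The share of XM_017599582.2 ran from 3.60% to 37.1% and that of XM_017599583.2 from 0% to 29.3%. These predicted transcripts, of 3088 and 3004 bases, were highest and lowest in opposite libraries (replicates 4 and 1). Gfra3 had 1 transcript, of 2070 bases.

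**Figure D3:**
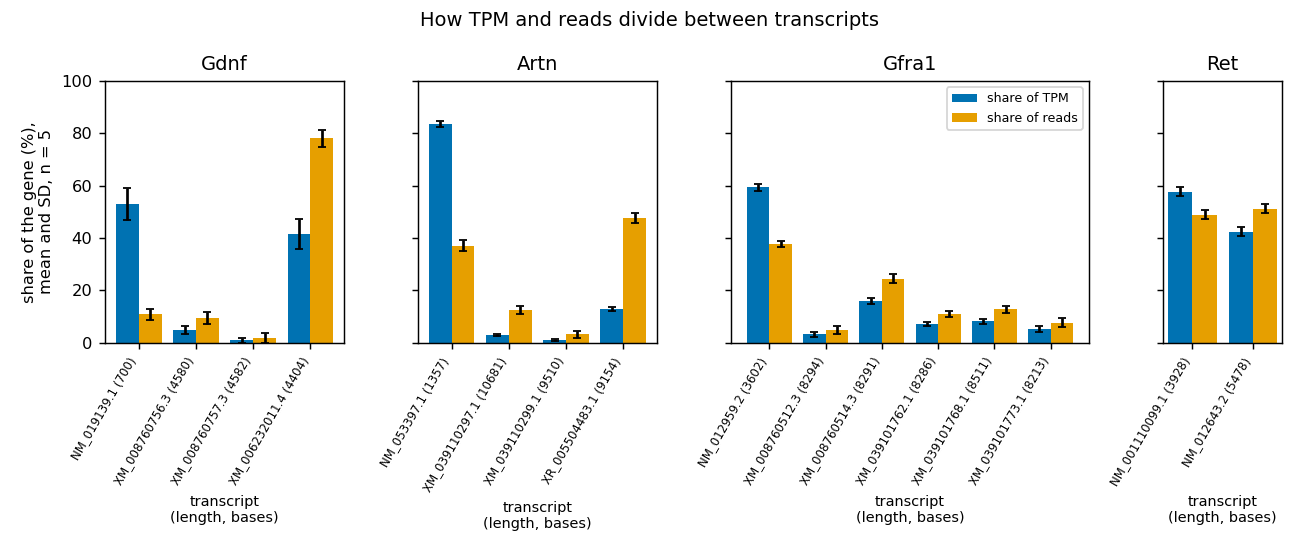
Share of TPM (blue) and of estimated reads (orange) held by each transcript with reads of Gdnf, Artn, Gfra1 and Ret, as mean and SD over 5 libraries; Gfra1 transcripts with a mean share of TPM under 3% are not drawn. Short transcripts hold 53.0% of Gdnf TPM with 10.8% of its reads and 83.5% of Artn TPM with 37.0% of its reads.

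In the deposited gene TPM, Artn varied between libraries more than the other members at or above 5 TPM. Its coefficient of variation (SD over mean) was 17.4%, where counting error at its reads would give 4.72%, and 195 of the 200 genes nearest in mean TPM had a lower one. Gdnf, at a similar level, had 4.43%, beside a counting value of 4.78%. The counting value weighs all reads alike, while most of the Gdnf TPM rested on few of them. With all reads on the longest transcript the coefficient of Gdnf would be 12.2% and that of Artn 16.9%, so the contrast between the 2 ligands was smaller there. Gfra1, Gfra3 and Ret had 5.10%, 5.27% and 5.90%, above the counting values of 0.806%, 1.74% and 1.59%. Their nearest 200 genes had median coefficients of 3.08%, 3.65% and 3.76%. The spread of Pspn (34.0%) and Nrtn (17.9%) was no more than counting gives at their reads (34.5% and 20.5%). Gfra4 had 48.9% against a counting value of 19.6%, and its transcript XM_006235041.4 held between 0% and 100% of its TPM; the part of this split in the spread was not tested. Without replicate 4 the coefficient of Artn was 11.0%, and without replicate 1 it was 14.7%.

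**Figure D4:**
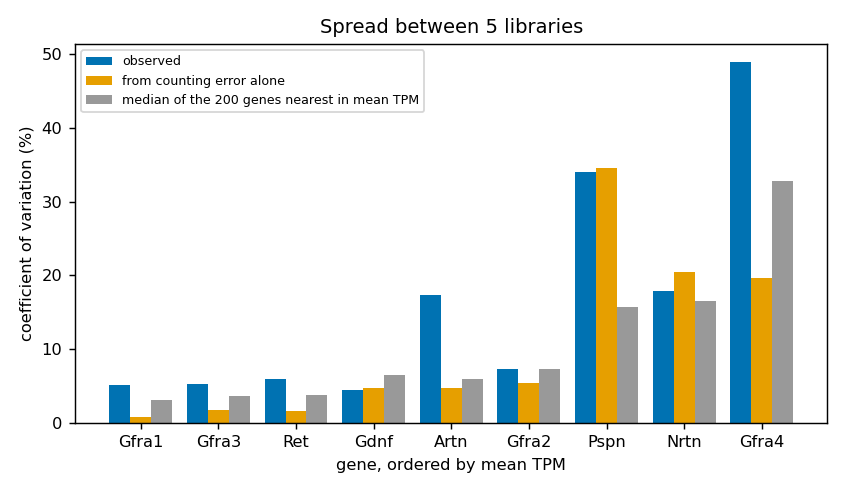
Coefficient of variation (SD over mean, %) of gene TPM over the 5 libraries for each member, beside the value from counting error alone and the median of the 200 genes nearest in mean TPM. Artn, at 17.4%, stands above both, and Gdnf, Pspn and Nrtn lie at or below their counting value; for Gdnf this holds for the deposited gene TPM and not with all reads on the longest transcript (12.2%).

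Some injury genes were highest and lowest in the same libraries as Artn. Ngfr, the p75 receptor, a marker of non-myelinating and injured Schwann cells, was at 335, 289, 280, 254 and 271 TPM in replicates 1 to 5. Runx2 was at 17.2, 13.6, 13.6, 12.7 and 13.2 TPM, and Jun, a transcription factor of the Schwann cell injury response, at 401, 388, 369, 349 and 377 TPM. All of these were highest in replicate 1 and lowest in replicate 4, as Artn was. The myelin genes Mbp and Prx had the opposite extremes. Mbp was at 622, 873, 934, 1004 and 928 TPM, and Prx at 57.0, 81.9, 82.9, 90.8 and 84.1 TPM. These genes were named after their values were seen. Of 12 detected injury genes, 3 had the extremes of Artn (Jun, Runx2 and Shh) and 1 had the opposite ones (Sprr1a). Of 10 Schwann cell genes 0 had the extremes of Artn and 3 had the opposite ones (Mbp, Prx and Pmp22). Of 16 detected feedback regulators and transcription factors of Ret signalling, 3 had the extremes of Artn and 1 the opposite ones. Over all 13635 detected genes the shares were 7.23% and 4.65%, so these counts are small. The part of these genes in the spread of Artn was not tested. Summed macrophage markers ran from 853 TPM in replicate 2 to 1340 TPM in replicate 5, and endothelial and mural markers from 191 TPM in replicate 5 to 361 TPM in replicate 1, the library where Artn was highest. Neither list was lowest in replicate 4, and summed Schwann cell markers were lowest, at 6747 TPM, in replicate 1.

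**Figure D5:**
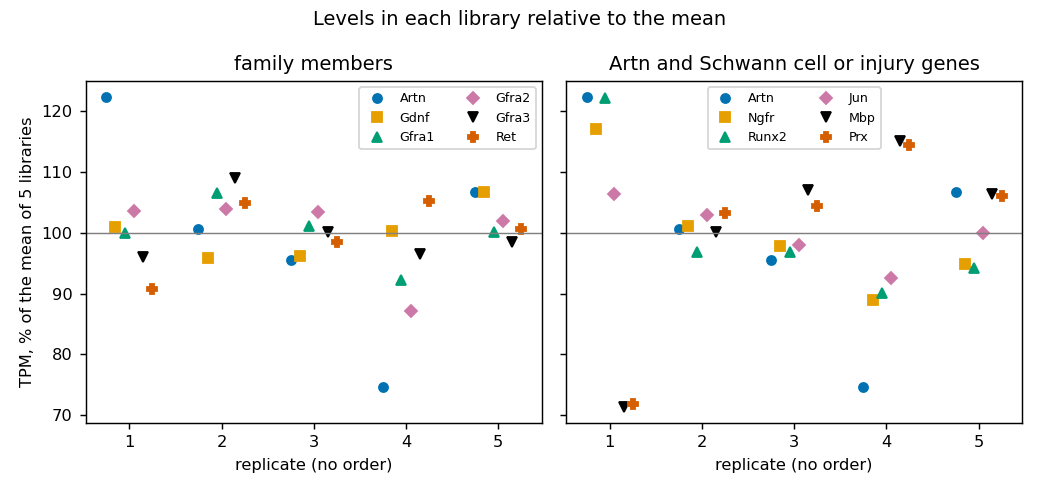
TPM as a percentage of the mean of the 5 libraries, for 6 family members (left) and for Artn beside Schwann cell and injury genes (right). Artn runs from 122% in replicate 1 to 74.7% in replicate 4, Ngfr, Runx2 and Jun share its highest and lowest library, and Mbp and Prx have the reverse.

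Receptors and modifiers outside the family that can act with its ligands were mostly present. Of 15 such genes, 13 were detected, 5 were higher than Ret and 10 lower. Over all genes 41.3% were detected, and of those tested 10.9% were higher than Ret and 87.5% lower. Ncam1, an adhesion molecule that can bind GDNF with Gfra1, was at 165 ± 12.03 TPM (SD, n = 5), 2.70-fold above Ret (limma adjusted p = 1.22e-10). Sdc3, a heparan sulphate proteoglycan that binds GDNF family ligands, was at 151 ± 10.5 TPM, 2.48-fold above Ret, and Itgb1, an integrin subunit, led the list at 535 ± 7.03 TPM. Lrig3 and Sorl1, a sorting receptor of GDNF, were low, at 5.41 ± 0.719 and 0.521 ± 0.0643 TPM. Gfral, the Ret coreceptor of the stress hormone GDF15, was nearly absent at 0.0249 ± 0.0353 TPM, while its ligand gene Gdf15 was at 19.0 ± 1.53 TPM.

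Genes of the Ret signalling path were widely detected, where 41.3% of all genes were. Of all genes tested, 10.9% were higher than Ret and 87.5% lower. Of 22 adaptors and enzymes that bind Ret, 19 were detected, 7 were higher than Ret, 14 lower and 1, Gab1, was not called. They were led by Stat3 at 177 ± 5.25, Pdlim7 at 127 ± 10.1 and the adaptor Grb2 at 121 ± 3.05 TPM. Dok2, Shc3 and Grb7 were lowest, at 1.38 ± 0.445, 0.803 ± 0.197 and 0.274 ± 0.0829 TPM. All 20 genes of the downstream kinase cascade were detected, with Mapk3 at 457 ± 10.3, Akt1 at 229 ± 5.85 and Map2k1 at 161 ± 1.62 TPM. Sos1, Braf and Pik3cb were lowest. Of these 20, 7 were higher than Ret, 10 lower and 3 not called. Of 17 feedback regulators and transcription factors downstream of Ret, 16 were detected and 16 were lower than Ret, near the share of 87.5% over all genes. Spry2, an inhibitor of receptor kinase signalling, was at 65.8 ± 3.31 TPM and was not called different from Ret (limma adjusted p = 0.0690). Dusp6, a phosphatase of the MAP kinase ERK, followed at 39.0 ± 1.79 TPM and Sh3kbp1 at 36.9 ± 1.54 TPM, and Etv4, Spry4 and Cblc were lowest. The median log2 ratio to Ret was -0.75 for adaptors, -0.18 for the kinase cascade and -1.56 for feedback genes, against -4.30 over all genes tested.

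Genes of Ret-bearing sensory neuron classes ranged from far above Ret to nearly 0 TPM. Of 16 such genes, 13 were detected, 2 were higher than Ret and 14 lower, close to the shares over all genes (10.9% higher and 87.5% lower). Their median log2 ratio was -3.71. P2rx3, the ATP-gated channel of non-peptidergic nociceptors, was 4.35-fold above Ret (limma adjusted p = 4.08e-11), and Maf, a transcription factor of touch neurons, was at 80.0 ± 6.35 TPM. Necab2 followed at 28.3 ± 2.15 TPM. Mrgprd, a receptor of mature non-peptidergic nociceptors, was at 0 in 3 libraries and at 0.0996 and 0.214 TPM in replicates 3 and 5, and Lpar5 and Slc17a8 were likewise undetected.

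Among other neurotrophic receptors, Ret was above Ntrk2 and Ntrk3, the receptors of BDNF and NT-3, and below Ngfr. Ntrk2 was at 31.0 ± 4.80 TPM (SD, n = 5), with a log2 ratio to Ret of -0.98 ± 0.19 (limma adjusted p = 3.59e-07), lower in 5 of 5 libraries. Ntrk3 was at 21.7 ± 1.52 TPM, with a log2 ratio to Ret of -1.48 ± 0.12 (limma adjusted p = 1.93e-09), lower in 5 of 5 libraries. Ntf3 and Ntf4, genes of neurotrophin ligands, were undetected. Of 12 injury genes all were detected, led by Gap43 at 1635 ± 7.78, Jun at 377 ± 19.7 and Atf3 at 364 ± 4.39 TPM. Olig1, Shh and Nrg1 were the lowest of that list, at 6.79 ± 0.986, 6.53 ± 1.16 and 5.01 ± 0.407 TPM.

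The genes whose level followed a member most closely over the 5 libraries were found by the SD of their log2 ratio to it, among genes of mean TPM of at least 10. For Ret these were Ache, Atp5mc1 and Pnrc1, with SDs of 0.0079, 0.0116 and 0.0142, where the median gene had 0.109. For Gfra1 they were Ncaph2, LOC100910821 and Mrpl21, with SDs from 0.0075 to 0.0092. For Gfra3 they were Camk2g, Ncoa2 and Yars2, and for Gfra2 LOC100911361, Mfap2 and Atg16l2. With 9424 genes compared with Ret over 5 libraries, these names describe these libraries alone.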

How the data were processed

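Gene-level TPM for 5 libraries was taken from the authors' deposited combined table (each column sums to 1000000). The deposited Salmon files give, per the file headers, transcript TPM, lengths and estimated counts of reads, which need not be whole. The submitters' processing notes name Salmon 1.5.1, Trim Galore 0.6.6, cutadapt 2.8 and the build mRatBN7.2; the strand setting was not given in the sources used here. A RefSeq table (GRCr8) named 67314 of 98811 transcripts (68.1%), matched on accession without version.

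Ratios of every gene to a reference gene were fitted with limma 3.58.1 (intercept only, eBayes with trend, two-sided, Benjamini-Hochberg over 24484 genes with TPM above 0 in at least 1 library, threshold 0.05). TPM sets levels per length, so an error in effective length or in the split of reads between transcripts moves a gene. Compared by estimated reads per transcript, no pair of libraries agreed within sampling noise, and gene levels were not compared in this way. The members and lists were chosen with earlier results of these data known. Named were all members, the 3 highest and 3 lowest genes of each list where described, and the 3 genes closest to Ret, Gfra1, Gfra2 and Gfra3; other names were chosen after their values were seen. Alternatives covered pseudocounts, filters, transcript sums, lengths, the variance trend and left-out replicates, and reads on the longest transcript, chosen after seeing the data. The transcript sums and annotated lengths used only transcripts named by the RefSeq table. Some genes of the neurotrophin list are not reported here.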

Additional observations from a re-analysis of the deposited data

Results flagged for a closer look

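Of 124 sets of 5 values examined, 10 had 1 library set apart from the rest by more than the Dixon limit for 5 samples; chance alone gives about 1 in 20. Among the members, Gfra2 was at 7.68 TPM in replicate 4, where the next value was 8.98. The Artn transcript NM_053397.1 held 85.4% of Artn TPM in replicate 5, where the next share was 83.2%. The Gfra1 transcript XM_008760514.3 held 17.9% of Gfra1 TPM in replicate 1, next to 15.7%. The Gfra4 transcript XM_008762197.3 held 40.5% of Gfra4 TPM in replicate 4 and 0% in the other libraries, from 28.5 estimated reads.

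Among the other genes, Itgb1 was lowest in replicate 5 (523 TPM, next 537), and replicate 1 was the lowest library for Sdc3 (133 TPM, next 152), Pmp22 (970 TPM, next 1214) and Prx (57.0 TPM, next 81.9). Lum was highest in replicate 4 at 16.7 TPM, next to 12.7. Alas2 was at 0.106 TPM in replicate 4 and at 0 in the others.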

How the results depend on the processing

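All 8 ratios to Ret and all 4 ratios of a ligand to its coreceptor kept their direction and their side of the threshold in every alternative that was run, left-out replicates included, but the folds of Gdnf, Artn, Pspn and Gfra4 moved by over 1.5 times in some (Artn below Ret 17.0-fold with reads on the longest transcript, Pspn below Ret 47.5-fold with annotated lengths, Gfra4 below Ret 40.7-fold and Gfra4 below Nrtn 1.81-fold with a pseudocount of 1, Pspn below Gfra2 6.69-fold with annotated lengths). With genes of mean TPM of at least 1 alone, Gfra4 was not tested, and the count of genes lower than Ret was 11163 in place of 21422, because fewer genes were tested. Reads on the shortest transcript were not among the fitted alternatives. There Gdnf would be at 66.9 TPM beside Ret at 71.7 TPM, and Gfra4 at 2.31 TPM beside Pspn at 2.44 TPM and Nrtn at 1.76 TPM. The order of neighbours was less stable. Sums of named transcripts and annotated lengths both counted named transcripts only. They left out unnamed transcripts that held 78.1% of Gdnf reads and 47.5% of Artn reads. Artn over Gdnf reversed in both settings (0.46 and 0.73), and the part of the left-out reads in this was not tested. With reads on the longest transcript, Artn below Gdnf was called in the main direction (-1.21). Gfra2 below Artn was lost with sums of named transcripts (-0.30; limma adjusted p = 0.0651) and with annotated lengths (-0.10; limma adjusted p = 0.530), and reversed with reads on the longest transcript (1.48). Nrtn over Pspn reversed with annotated lengths (0.23; limma adjusted p = 0.491) and ran from -0.66 to -0.196 with 1 replicate left out. Gfra3 below Gfra1 was lost with reads on the longest transcript (-0.013). Sums of named transcripts moved the share of Gfra1 to 58.0% and that of Gfra3 to 39.1%. The shares were not computed with reads on the longest transcript, where the mean was 125 TPM for Gfra1 and 124 TPM for Gfra3. Of the 9 members, 8 were detected in each setting except a TPM of at least 2 in every library, where 6 were. No paired analysis was possible because all samples form 1 group. Low reads limit Pspn, Nrtn and Gfra4.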
